A study of Mus musculus with 192 samples.

Results

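Plin2, Hilpda, Lpl, Cd36, Fabp4, Fabp5, Acsl1 and Pparg are 8 genes of fatty acid uptake, activation and storage in lipid droplets. They were taken by symbol from a table of 23481 genes, and 7 of them were among the 4720 genes that passed a filter on low counts. Pparg, with 181 counts over all libraries, did not pass and is given by its counts. Expression was read as unique molecular identifier (UMI) counts, in which each captured RNA molecule counts once. The cells were dendritic cells grown from the bone marrow of female C57BL/6J mice aged 6 to 8 weeks with GM-CSF at 15 ng/mL, a medium that all groups share, and 100000 cells per well were then exposed to ligands for 6 hours. The 7 ligands act on pattern recognition receptors and were labelled PAM, LPS, HMW, depleted zymosan (Zymosan), SeV, 3',3'-cGAMP (cGAMP) and CpGB. Their doses are not given in the sources used here. The 64 groups of 3 libraries were Ctrl, the 7 single ligands, all 21 pairs and all 35 triplets, so that each ligand was present in 22 groups. Nothing in the labels says whether the 3 libraries of a group came from separate mice or cultures, and the p-values then measure only the spread between these libraries, which may be technical.

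A lipid droplet is a store of neutral lipid enclosed by a phospholipid monolayer. Plin2 (perilipin 2) coats the droplet in most cell types outside adipose tissue, and Hilpda is a small droplet protein, induced by hypoxia, that inhibits the triglyceride lipase encoded by Pnpla2. Lpl encodes the secreted lipase that frees fatty acids from lipoproteins, and Cd36 encodes a scavenger receptor that helps fatty acids and oxidised lipoproteins into the cell. Fabp4 and Fabp5 encode cytosolic fatty acid carriers, Acsl1 encodes a synthetase that joins fatty acids to coenzyme A, and Pparg encodes a nuclear receptor that binds fatty acids and drives several of the other genes. Macrophages and dendritic cells are known to change their lipid stores when pattern recognition receptors are engaged.

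RefSeq promoter entries (GRCm38.p6, from 250 bases before to 50 after each start) were found for 5 of the 8 genes, Plin2, Acsl1, Cd36, Pparg and Hilpda, and not for Lpl, Fabp4 and Fabp5. The windows of Hilpda and Plin2 are shown because both genes encode droplet proteins and both had higher levels with cGAMP in all 22 backgrounds described below. Capitals mark ACGTG, 1 form of the core of the hypoxia response element, read on both strands, and other forms were not searched.
Hilpda, 1 of its 2 starts, chr6:29272376-29272675, plus strand: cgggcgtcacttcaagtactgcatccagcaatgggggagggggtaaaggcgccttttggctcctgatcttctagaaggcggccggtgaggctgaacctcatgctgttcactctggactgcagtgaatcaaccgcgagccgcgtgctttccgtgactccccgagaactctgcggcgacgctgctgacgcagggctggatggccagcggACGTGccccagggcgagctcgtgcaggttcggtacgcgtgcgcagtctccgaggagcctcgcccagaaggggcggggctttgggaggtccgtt
Plin2, chr4:86670010-86670309, minus strand: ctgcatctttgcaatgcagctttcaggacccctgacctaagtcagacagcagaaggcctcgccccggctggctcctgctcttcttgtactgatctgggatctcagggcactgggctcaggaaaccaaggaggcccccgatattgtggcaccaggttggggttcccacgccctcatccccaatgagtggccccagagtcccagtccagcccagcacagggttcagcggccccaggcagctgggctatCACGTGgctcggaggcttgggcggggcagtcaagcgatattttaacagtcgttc
This Hilpda window holds 1 match, which begins 43 bases before the start, and is shown for that match. The window of the other Hilpda start (chr6:29272238-29272537) holds 0 matches, as do both windows of Acsl1, the 1 of Cd36 and the 3 of Pparg. In Plin2 the match begins 4 bases before the start and is CACGTG, a palindrome in which ACGTG is read once on each strand, so that the 2 matches overlap. ACGTG occurs in 19.62% of the 32851 promoter windows of this length, and the match is a description of these letters only. All 8 genes are annotated as protein coding. By GENCODE M21 on GRCm38, Plin2 lies on chromosome 4 (86648386 to 86670060, minus strand), Hilpda and Pparg on chromosome 6 (29272488 to 29275446 and 115360951 to 115490399, both plus), Lpl and Acsl1 on chromosome 8 (68880491 to 68907448 and 46471037 to 46536051, both plus) and Cd36 on chromosome 5 (17781690 to 17888801, minus).

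Total counts ran from 46564 to 610234 per library with a median of 171616, and the 3 Ctrl libraries held 61823 to 89530. Expression levels are given as CPM, counts of a gene scaled to a common total of the tested genes, with library sizes adjusted by the trimmed mean of M-values (TMM). Summed CPM of the 9 dendritic cell markers was 3072 in Ctrl and ran from 3058 to 5608 over the groups, with counts for all 9, although Cd209a had 3 counts in all and Zbtb46 had 0 counts in Ctrl and 99 in all. These markers did not move alike. Group means of Ccl22 ran from 136 to 1540 CPM (148 in Ctrl), and Ccr7 was lowest in Ctrl (196 CPM) and reached 790 CPM. Those of Itgax ran from 191 to 537 CPM (421 in Ctrl). The sum of the 7 macrophage markers was highest in Ctrl (3560) and lowest with LPS + cGAMP + CpGB (1807). Of these, Csf1r was highest in Ctrl (1718 CPM) and fell to 417 CPM, while Emr1 ran from 150 to 983 CPM (287 in Ctrl). A few members can carry either sum. Neutrophil markers (6 of 7 in the table) summed to 535 to 967 CPM. Of 6 adipocyte markers, Lep, Plin1, Cidec, Cfd and Pck1 were at 0 in all libraries and Adipoq had 1 count. In bulk samples, fewer cells of a type and less RNA per cell cannot be told apart.

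4 libraries stood apart from their labels. Over the 1000 genes most variable between groups, replicate 1 of HMW + SeV + cGAMP correlated at 0.956 with the mean of Zymosan + cGAMP and at 0.915 with the other libraries of its own group. Replicate 1 of Zymosan + SeV + cGAMP correlated at 0.964 with HMW + cGAMP and at 0.919 with its own group, replicate 1 of HMW + cGAMP + CpGB at 0.965 with SeV + CpGB and at 0.913 with its own, and replicate 1 of HMW + SeV + CpGB at 0.970 with cGAMP + CpGB and at 0.923 with its own. In these 4 the better match exceeded the own group by over 0.04, and in the other 188 libraries by at most 0.0301. Most libraries matched another group at least slightly better than their own, so only the size of the gap sets these 4 apart. The own-group mean left the library itself out and so held fewer libraries than the other means. The 4 libraries are kept under their labels, and results that rest on them are also given without them, a choice made after the data were seen.

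Hilpda spanned the widest range of the 7 tested genes, from a group mean of 20.2 CPM to 759 CPM. In Ctrl its 3 libraries held 27.7, 24.9 and 28.8 CPM, from 2, 2 and 3 counts. With Zymosan alone they held 285, 250 and 219 CPM. All 3 Zymosan libraries lay far above the Ctrl libraries, a log2 difference of 3.14 (SE 0.57, adjusted p = 6.65e-06). With cGAMP alone they held 36.7, 87.6 and 61.4 CPM, all above Ctrl, but the log2 difference of 1.23 (SE 0.75) did not pass the test (adjusted p = 0.245). The other 5 single ligands left Hilpda between 30.2 and 36.5 CPM, with libraries that overlapped Ctrl and adjusted p of 0.787 or more. In the order of single-ligand levels, no 2 neighbours from Ctrl (27.2 CPM) up to cGAMP (61.9 CPM) passed the test against each other, and Zymosan exceeded cGAMP by 1.91 (SE 0.40, adjusted p = 3.12e-05).

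Adding Zymosan raised Hilpda in all 22 backgrounds in which it could be added (Ctrl, 6 single ligands and 15 pairs), and all 22 steps passed the test, with log2 differences of 1.79 to 3.74. The average over the 22 steps was 2.84 (SE 0.09, adjusted p = 1.38e-83), from a mean of 59.5 CPM without to 373 CPM with Zymosan. Adding cGAMP gave a positive difference in 22 of 22 backgrounds, of which 14 were called, with an average of 1.75 (SE 0.10, adjusted p = 3.39e-42). For the other 5 ligands the average lay between -0.18 and 0.37 and was not called. Steps of adding a ligand are called at adjusted p below 0.05 and a log2 difference of at least 1, and averages at a difference of at least 0.5. Of all 154 steps over the 4720 genes, 3.28% were called higher and 1.65% lower, and of all average effects 8.39% were called higher and 5.53% lower.

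The median level of Hilpda rose over 4 classes set by the presence of these 2 ligands, a grouping made after the values were seen, and the ranges of neighbouring classes partly overlapped. In the 26 groups with neither, the group means ran from 20.2 to 83.9 CPM (median 33.9). In the 16 groups with cGAMP and no Zymosan they ran from 61.9 to 250 CPM (median 135), in the 16 with Zymosan and no cGAMP from 188 to 404 CPM (median 303), and in the 6 with both from 405 to 759 CPM (median 607). By difference in CPM from the class median, the single libraries farthest from their class were among those that stood apart: HMW + SeV + cGAMP held 536, 84.9 and 89.1 CPM, and Zymosan + SeV + cGAMP held 94.2, 643 and 478 CPM. Without the 4 libraries the 46 libraries with cGAMP and no Zymosan lay between 36.7 and 280 CPM and the 17 with both between 461 and 808 CPM, so that these 2 classes no longer overlapped. The 48 libraries with Zymosan and no cGAMP, at 119 to 439 CPM, still overlapped those with cGAMP and no Zymosan. The median group mean with cGAMP and no Zymosan went from 135 to 104 CPM. Without the 4 libraries the average difference was 2.87 (SE 0.07) for Zymosan, with 22 of 22 steps called, and 1.73 (SE 0.08) for cGAMP, with 17 called. Over the 63 conditions Hilpda was called higher than Ctrl in 35 with all libraries and in 37 without the 4, and lower in 0 either way.

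**Figure D1:**
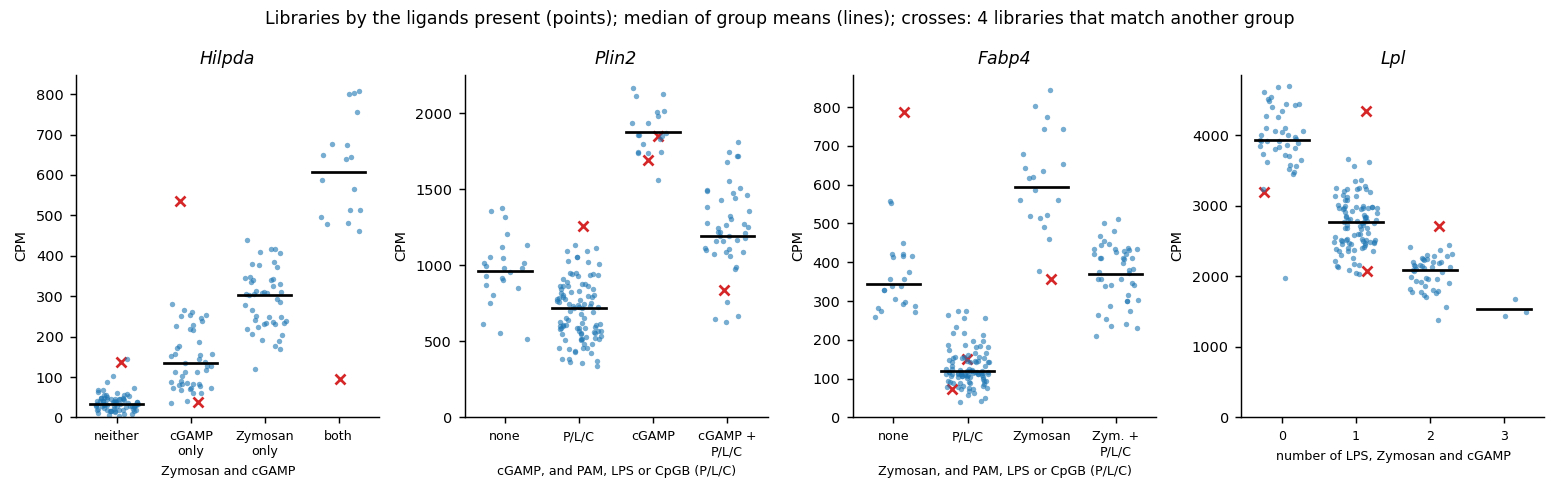
CPM of Hilpda, Plin2, Fabp4 and Lpl in every library (points, vertical axis) by the ligands present (horizontal axis), with the median of the group means as a line and the 4 libraries that matched another group as crosses. Hilpda is highest with both Zymosan and cGAMP (median 607 CPM), Plin2 with cGAMP in the absence of PAM, LPS and CpGB (median 1875 CPM), Fabp4 lowest with PAM, LPS or CpGB in the absence of Zymosan (median 119 CPM), and Lpl is lower the more of LPS, Zymosan and cGAMP are present.

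In pairs, Hilpda was the only one of the 7 genes called above both of its single ligands at a log2 difference of at least 1. With no fold threshold 5 values passed, among them Acsl1 in PAM + cGAMP (smaller difference 0.91, adjusted p = 7.06e-09), cGAMP + CpGB (0.88, adjusted p = 1.06e-07) and HMW + Zymosan (0.71, adjusted p = 0.00951). With Zymosan + cGAMP the Hilpda libraries held 808, 512 and 678 CPM, and the smaller of the 2 log2 differences from the singles was 1.42 (adjusted p = 4.54e-05). With PAM + cGAMP they held 265, 246 and 157 CPM against 30.2 CPM with PAM and 61.9 CPM with cGAMP, a smaller difference of 1.75 (adjusted p = 0.00195). These 2 calls stand among 147 tests of the 7 genes, 0 of which were called below both singles, against 0.353% of all genes and pairs called above and 0.0504% below. None of the 21 interactions of Hilpda, tests of whether the effects of a pair depart from the sum of the single effects, passed. In triplets, 0 of 245 tests were called above all 3 pairs and 0 below (background 0.0115% and 0%). The highest level of all 64 groups was in PAM + Zymosan + cGAMP, at 674, 803 and 801 CPM.

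Plin2 moved in both directions. In Ctrl its libraries held 928, 985 and 999 CPM. With cGAMP they held 2017, 1934 and 1743 CPM, all above Ctrl, a log2 difference of 0.96 (SE 0.16, adjusted p = 7.60e-08) just under the fold threshold of 1. It was past it without Ctrl replicate 2 (1.01), without cGAMP replicate 3 (1.02), without replicate 2 or 3 of every group (1.03 and 1.12), with the cGAMP and Ctrl libraries alone in the fit (1.02) and without the filter on low counts (1.16). With PAM they held 433, 367 and 339 CPM, all below Ctrl and the lowest of the 64 groups, a difference of -1.36 (SE 0.18, adjusted p = 6.52e-11). Zymosan (562 CPM, -0.81, adjusted p = 0.000283) and CpGB (580 CPM, -0.75, adjusted p = 0.000218) lay below Ctrl in all 3 libraries, also under the fold threshold. In the order PAM, Zymosan, CpGB, LPS, HMW, Ctrl, SeV and cGAMP, PAM lay below Zymosan (adjusted p = 0.0199) and cGAMP above SeV (0.719 on the log2 scale, adjusted p = 0.000197), and the neighbours between them did not pass the test. Of these, the libraries with LPS all lay above those with CpGB (0.45, SE 0.16, adjusted p = 0.0602).

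Adding cGAMP gave a higher Plin2 level in 22 of 22 backgrounds, 9 of them called, with an average of 0.95 (SE 0.03, adjusted p = 6.77e-75) from 765 CPM without to 1446 CPM with cGAMP. The smallest step was 0.15, on LPS + Zymosan (1068 to 1187 CPM). The steepest was 2.12, on PAM, where the level went from 380 to 1642 CPM. Adding CpGB gave a lower level in 19 of 22 backgrounds (average -0.45, SE 0.03, adjusted p = 1.43e-28) and adding PAM in 21 of 22 (average -0.36, SE 0.03, adjusted p = 8.30e-21), both under the threshold of 0.5. The CpGB average was past it with library size alone and on thinned counts (-0.52 in each). Adding SeV averaged 0.32 (SE 0.03, adjusted p = 2.30e-17) and LPS -0.17 (SE 0.03, adjusted p = 4.09e-06), positive in 17 and 7 of 22 backgrounds. HMW averaged 0.10 (SE 0.03, adjusted p = 0.0262), and all 3 lay under the threshold. Zymosan averaged 0.04 (SE 0.03, adjusted p = 0.292), positive in 11 of 22, unlike its lower level alone against Ctrl. The 7 groups with cGAMP and none of PAM, LPS and CpGB held 1762 to 2030 CPM, above every other group mean, and the 15 with cGAMP and at least 1 of those 3 held 683 to 1642 CPM. The highest of the 64 groups was SeV + cGAMP at 2111, 1856 and 2123 CPM, the 1 condition in which Plin2 was called higher than Ctrl (1.06, SE 0.15, adjusted p = 1.79e-09). Of 63 conditions 6 were called lower, and each held PAM or CpGB. With library size alone 0 conditions were higher and 10 lower, without the filter on low counts 7 were higher and 1 lower, and without Ctrl replicate 2 there were 3 higher and 4 lower.

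**Figure D2:**
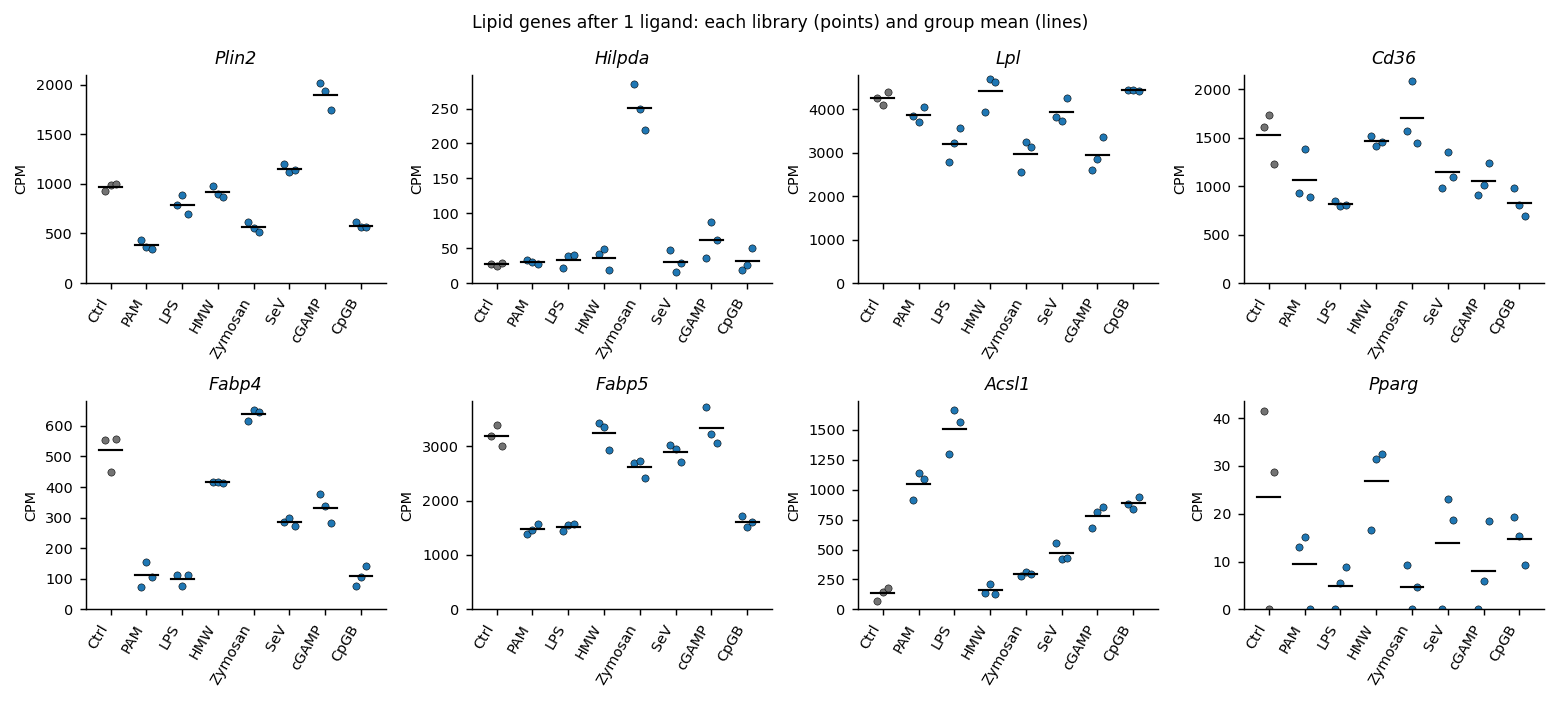
CPM (vertical axis) of the 8 genes in the 3 libraries of Ctrl (grey) and of each single ligand (blue), with the group mean as a line. Hilpda stands out with Zymosan (251 CPM against 27.2 in Ctrl), Plin2 with cGAMP (1898 against 971), and Acsl1 with LPS (1508 against 134), while Fabp4 and Fabp5 are lowest with PAM, LPS and CpGB.

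Alone against Ctrl, Lpl was lower with 3 of the 7 ligands. Its Ctrl libraries held 4252, 4103 and 4397 CPM. With LPS its libraries held 2784, 3237 and 3562 CPM, with Zymosan 2558, 3238 and 3135 CPM, and with cGAMP 2604, 2857 and 3370 CPM. All 9 of these libraries lay below the Ctrl libraries, by -0.41, -0.51 and -0.53 (adjusted p = 0.00618, 0.00219 and 0.000492), none past the fold threshold. PAM (3867 CPM), SeV (3937 CPM), HMW (4416 CPM) and CpGB (4439 CPM) did not pass the test against Ctrl (adjusted p of 0.527 or more). No 2 neighbours in the order of the 8 levels passed the test, although all 3 libraries with PAM lay above all 3 with LPS (0.27, SE 0.12, adjusted p = 0.0945). The summed macrophage markers were lowest among the single ligands with the same 3, at 2169 CPM with LPS, 2652 CPM with Zymosan and 2722 CPM with cGAMP against 3560 CPM in Ctrl, and their part in the result was not tested. The macrophage sum mixes members that did not move alike over the groups, as given above.

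The same direction was seen in every background. Adding LPS, Zymosan or cGAMP gave a lower level in 22 of 22 backgrounds each, with averages of -0.52 (SE 0.03, adjusted p = 2.61e-47), -0.52 (SE 0.03, adjusted p = 7.98e-48) and -0.48 (SE 0.03, adjusted p = 1.50e-43), of which the first 2 passed the threshold of 0.5. These averages lie close to that threshold: without the filter on low counts LPS averaged -0.48, and cGAMP averaged -0.52 with RLE (another scaling of library sizes), by DESeq2 and on thinned counts and -0.62 with library size alone, past the threshold. No single step reached a log2 difference of 1. PAM averaged -0.23 (SE 0.03, adjusted p = 2.34e-14) and SeV -0.07 (SE 0.03, adjusted p = 0.0219), both under the threshold. Their steps were positive in 1 and 6 of 22 backgrounds. The averages of HMW and CpGB did not pass (adjusted p = 0.634 and 0.915). Grouped after the values were seen by how many of these 3 ligands were present, the median group mean was 3928 CPM with 0 (15 groups), 2765 CPM with 1 (33 groups), 2096 CPM with 2 (15 groups) and 1535 CPM in the 1 group with all 3. In that group, LPS + Zymosan + cGAMP, the libraries held 1435, 1498 and 1673 CPM. None of the 21 interactions of Lpl passed the test. Of the 63 conditions, 11 were called lower than Ctrl and 0 higher, and the lower count was 28 with library size alone, 3 without the filter and 4 without replicate 1 of every group. 1 library with none of the 3 ligands, replicate 3 of PAM + HMW + SeV at 1974 CPM, lay far below the other 2 of its group (3727 and 3447 CPM). It was the library with the most counts of all, and it correlated at 0.970 with PAM + LPS and at 0.953 with its own group.

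Cd36 passed the test against Ctrl with 2 of the 7 single ligands, LPS and CpGB, at lower levels and under the fold threshold of 1. Its Ctrl libraries spread widely, at 1607, 1734 and 1229 CPM. With LPS they held 841, 798 and 805 CPM and with CpGB 980, 807 and 687 CPM, all below the Ctrl libraries, with log2 differences of -0.89 (SE 0.22, adjusted p = 0.000380) and -0.90 (SE 0.22, adjusted p = 0.000505). These differences did not reach the fold threshold. Without Ctrl replicate 3, the lowest of the 3, they were -1.04 and -1.05 and were called, and without CpGB replicate 1 the second was -1.02. With RLE scaling and with library size alone both were called, and by DESeq2 the first. Summed macrophage markers were 2169 CPM with LPS and 2973 CPM with CpGB against 3560 CPM in Ctrl, and dendritic cell markers 4593 and 4535 CPM against 3072 CPM, and their part in the Cd36 result was not tested. Both sums mix members that did not move alike over the groups. Zymosan alone gave 1564, 2080 and 1446 CPM, the highest mean of the 64 groups, and its libraries overlapped Ctrl (0.17, SE 0.20, adjusted p = 0.728). Zymosan exceeded LPS by 1.06 (SE 0.20, adjusted p = 3.70e-06) and CpGB by 1.07 (SE 0.20, adjusted p = 5.72e-06). The 8 groups with none of PAM, LPS, cGAMP and CpGB held 1020 to 1697 CPM and the other 56 held 628 to 1100 CPM, a grouping made after the values were seen. Adding LPS gave a lower level in 21 of 22 backgrounds (average -0.46, SE 0.05, adjusted p = 3.47e-19, past the threshold of 0.5 with RLE, library size alone, DESeq2 and thinned counts at -0.60 to -0.50), and the single called step was LPS added to Zymosan, from 1697 to 736 CPM (-1.20, adjusted p = 1.57e-07). Of 63 conditions 12 were called lower and 0 higher, and no interaction passed. The lower count was 5, 3 and 25 without Ctrl replicate 1, 2 or 3, 41 with library size alone and 1 without the filter on low counts.

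Fabp4 and Fabp5 lie on chromosome 3 (GENCODE M21 on GRCm38, 10204088 to 10208576 on the minus strand and 10012548 to 10016607 on the plus strand) and belong to 1 gene family, so that reads from related copies could be split between them in the authors' counting. Over the 64 group means their log2 CPM correlated at 0.84, a description only, since all groups share the processing and many share ligands. In Ctrl, Fabp4 held 554, 449 and 557 CPM. With PAM it held 72.2, 156 and 106 CPM, with LPS 112, 77.6 and 112 CPM, and with CpGB 77.6, 107 and 143 CPM. All 9 libraries lay below all Ctrl libraries, and the log2 differences were -2.18 (SE 0.25, adjusted p = 9.58e-14), -2.37 (SE 0.26, adjusted p = 1.63e-15) and -2.17 (SE 0.25, adjusted p = 1.39e-13). SeV (286 CPM, -0.87, adjusted p = 0.00156) and cGAMP (332 CPM, -0.66, adjusted p = 0.0162) were also below Ctrl, under the fold threshold, which SeV passed with library size alone (-1.06). Zymosan alone gave 617, 653 and 644 CPM, all 3 above Ctrl, a difference of 0.29 that did not pass (SE 0.20, adjusted p = 0.441). LPS, CpGB and PAM, the 3 lowest, did not pass the test as neighbours, and PAM lay below SeV by 1.31 (SE 0.26, adjusted p = 8.80e-06).

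Fabp4 was higher with Zymosan in every background. Adding Zymosan gave a positive difference in 22 of 22 backgrounds, with 16 called, and the average was 1.32 (SE 0.05, adjusted p = 3.18e-68), from 202 CPM without to 447 CPM with Zymosan. The smallest of the 22 steps was the one on Ctrl. In the 34 groups with PAM, LPS or CpGB and no Zymosan the group means ran from 74.3 to 253 CPM (median 119), and in the 15 with Zymosan added to at least 1 of those 3 from 240 to 456 CPM (median 370). Adding LPS averaged -0.71 (SE 0.06, adjusted p = 7.30e-26) and adding CpGB -0.84 (SE 0.06, adjusted p = 4.49e-33). Adding PAM averaged -0.45 (SE 0.06, adjusted p = 2.68e-13), under the threshold of 0.5, but was past it with library size alone (-0.58), on thinned counts (-0.60) and without replicate 2 of every group (-0.54). Adding cGAMP averaged 0.32 (SE 0.05, adjusted p = 7.08e-08), also under the threshold and opposite in sign to cGAMP alone against Ctrl. It was positive in 17 of 22 backgrounds, with 2 steps called higher. Over the 63 conditions Fabp4 was called lower in 35 and higher in 0. Without the 4 libraries that stood apart the Zymosan average was 1.34 (SE 0.05), with 17 steps called, and the count of lower conditions was again 35. Summed dendritic cell markers were 4498 CPM with PAM, 4593 with LPS and 4535 with CpGB against 3072 CPM in Ctrl, and their part in the lower Fabp4 and Fabp5 levels was not tested. That sum mixes members that did not move alike over the groups, Ccl22, Ccr7 and Itgax among them.

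Fabp5 was lowest with the same 3 single ligands as Fabp4, over a narrower range. Ctrl held 3186, 3380 and 3005 CPM. With PAM the libraries held 1384, 1463 and 1572 CPM, with LPS 1437, 1557 and 1571 CPM, and with CpGB 1718, 1506 and 1605 CPM, all far below Ctrl. The differences were -1.11 (SE 0.11, adjusted p = 1.25e-17), -1.06 (SE 0.11, adjusted p = 9.52e-17) and -0.99 (SE 0.11, adjusted p = 1.06e-14), the last just under the fold threshold. The LPS difference was under it at -0.98 without Ctrl replicate 2, the CpGB difference past it at -1.04 without Ctrl replicate 3 and at -1.03 without CpGB replicate 1, and with RLE, library size alone, DESeq2 and thinned counts (-1.21 to -1.01). The LPS difference was also under it without replicate 1 or 2 of every group (-0.96 and -0.94) and with the LPS and Ctrl libraries alone (-0.99), and without the filter on low counts PAM (-0.92) and LPS (-0.81) were not called. HMW (3235 CPM) and cGAMP (3330 CPM) did not pass the test against Ctrl (adjusted p = 0.994 and 0.753). Zymosan (2612 CPM) and SeV (2887 CPM) lay below the Ctrl mean of 3190 CPM and did not pass either. The sign with Zymosan alone is opposite to its average given below. The 15 groups without PAM, LPS and CpGB held 2612 to 3470 CPM and the 49 with at least 1 of them 1380 to 2464 CPM, with no overlap of group means. Zymosan and cGAMP averaged 0.25 each (SE 0.02, adjusted p = 1.10e-20 and 9.15e-22), positive in 20 and 21 of 22 backgrounds, and no average effect of any ligand on Fabp5 reached 0.5 (with library size alone PAM reached -0.55 and LPS -0.51). Over the 63 conditions it was called lower in 14 and higher in 0, and the lower count was 11, 5 and 18 without Ctrl replicate 1, 2 or 3, 39 with library size alone and 0 without the filter.

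Acsl1 was higher with 6 of the 7 ligands. Its Ctrl libraries held 69.3, 150 and 182 CPM, from 5, 12 and 19 counts. LPS gave 1295, 1663 and 1566 CPM and PAM 912, 1141 and 1089 CPM, with log2 differences of 3.43 (SE 0.21, adjusted p = 5.24e-38) and 2.91 (SE 0.22, adjusted p = 3.85e-28). CpGB (887 CPM, 2.66, adjusted p = 9.62e-24), cGAMP (783 CPM, 2.49, adjusted p = 1.04e-20), SeV (468 CPM, 1.71, adjusted p = 1.62e-09) and Zymosan (296 CPM, 1.09, adjusted p = 0.00154) also raised it, each with all 3 libraries above all Ctrl libraries. HMW (133, 215 and 130 CPM) overlapped Ctrl (0.23, SE 0.29, adjusted p = 0.898). In the order of levels, HMW lay below Zymosan, Zymosan below SeV and SeV below cGAMP (adjusted p of 0.00491 or less), cGAMP, CpGB and PAM did not pass the test as neighbours, and LPS exceeded PAM by 0.53 (SE 0.13, adjusted p = 0.000676). The Zymosan difference was under the fold threshold without Ctrl replicate 1, the lowest of the 3 (0.84), without replicate 1 of every group (0.89), with RLE scaling (0.96), with library size alone (0.95) and by DESeq2 (0.96). Over the 63 conditions Acsl1 was called higher in 62, all but HMW, and lower in 0.

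In 13 of the 21 pairs Acsl1 rose less than the sum of its single effects, by the interaction test given below. The highest group, PAM + cGAMP, held 1888, 2017 and 2016 CPM, and PAM + LPS held 1643 CPM on average. The 8 groups with none of PAM, LPS, cGAMP and CpGB held 134 to 629 CPM and the 56 others 613 to 1974 CPM. Within the 56, the 18 with Zymosan had a median of 965 CPM and the 38 without it 1453 CPM. Adding Zymosan averaged -0.20 (SE 0.03, adjusted p = 1.71e-08), under the threshold, with a lower level in 17 of 22 backgrounds and 2 called rises. The average effects of PAM (0.80, SE 0.03, adjusted p = 2.68e-66), LPS (0.98, SE 0.03, adjusted p = 2.56e-81), cGAMP (0.90, SE 0.03, adjusted p = 1.31e-74) and CpGB (0.50, SE 0.03, adjusted p = 1.15e-36) passed. That of CpGB lies at the threshold of 0.5 and was 0.497 with RLE scaling, 0.439 with library size alone, 0.498 by DESeq2 and 0.478 on thinned counts, each under it.

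**Figure D3:**
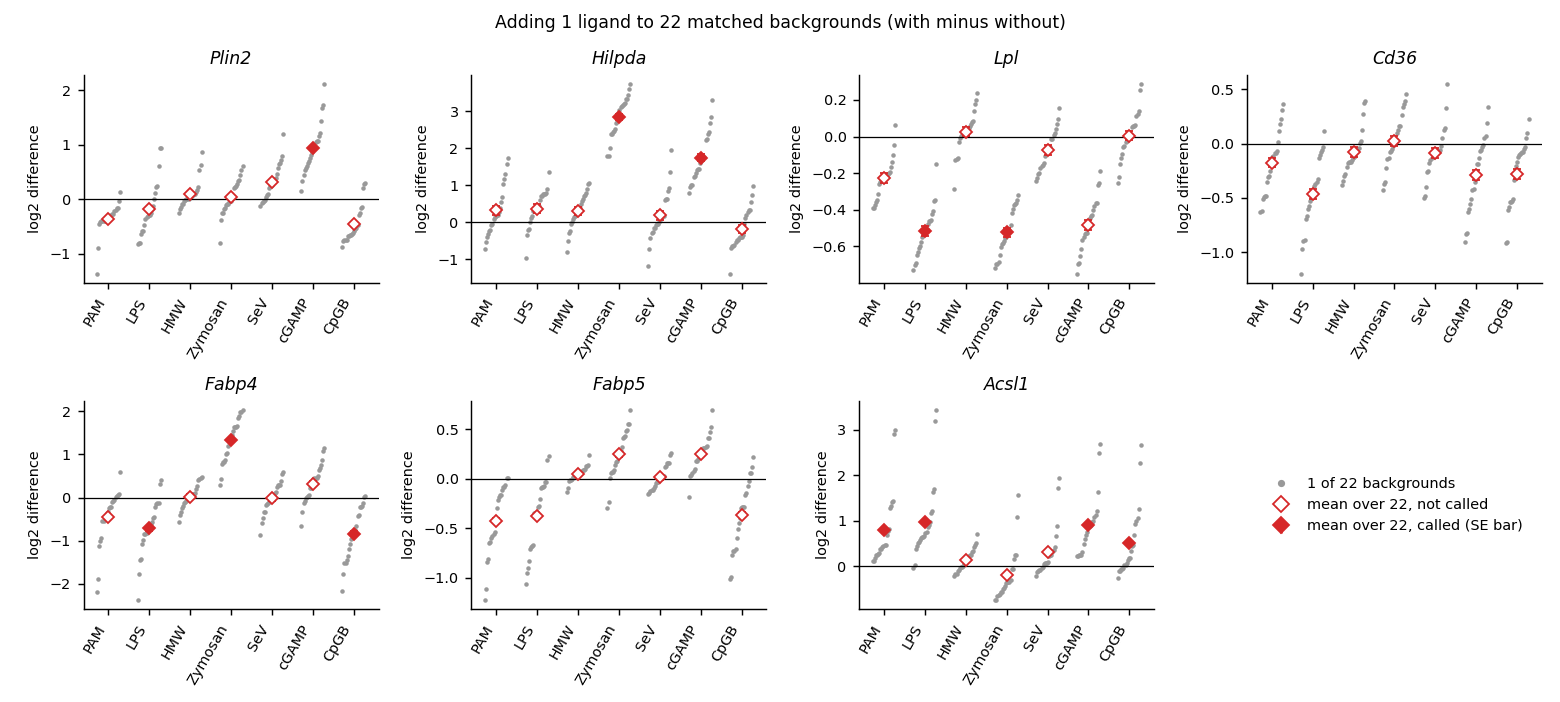
Log2 difference (vertical axis) of each of 7 genes when 1 ligand (horizontal axis) was added to each of 22 matched backgrounds (grey points), with the mean over the 22 as a diamond, filled where it was called, and its standard error as a bar. The 22 points for Zymosan on Hilpda run from 1.79 to 3.74, those for cGAMP on Plin2 from 0.15 to 2.12, and those for Zymosan on Fabp4 from 0.29 to 2.02.

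Pparg had few counts in every group. It had 3, 0 and 3 counts in the Ctrl libraries and 2, 7 and 7 with HMW, the most of any single ligand. Pooled over libraries it stood at 27.2 CPM of all counts in Ctrl (exact Poisson interval at 95%, 10.0 to 59.3, which covers counting error only). In the 22 groups with LPS it stood at 2.37 CPM (1.57 to 3.42; 28 counts) and in the 22 matched groups without LPS at 8.96 CPM (7.24 to 11.0; 94 counts). With PAM it stood at 2.84 CPM (2.00 to 3.92) against 8.66 (7.01 to 10.6) without. It had a count in 94 libraries and 0 counts in 14 of 64 groups, 9 of them with LPS, 8 with PAM, 8 with SeV, 6 with cGAMP, 4 with CpGB, 2 with HMW and 2 with Zymosan. Zymosan (4.94 with, 8.01 without), SeV (4.45 and 7.66) and cGAMP (3.88 and 8.34) also had lower pooled levels with the ligand, and the intervals for HMW (5.09 to 7.84 and 5.03 to 8.20) and CpGB (5.17 to 8.25 and 5.13 to 8.26) overlapped almost wholly. In a fit with no filter on low counts (14862 genes) edgeR called no single-ligand difference of Pparg, the log2 differences running from -2.11 with Zymosan (SE 1.15) to 0.42 with HMW (SE 0.82), with adjusted p of 0.496 or more and 0 of 7 at an unadjusted p under 0.05. Averages over the 22 backgrounds include groups at 0 counts, and no fitted value is given for them.

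With the single ligands 7 of the 49 values of the 7 genes were called higher and 6 lower, and the higher calls were 6 for Acsl1 and 1 for Hilpda. With PAM 1 of the 7 genes was called higher (8.01% of all genes) and 3 lower (5.89%), with LPS 1 higher (14.6%) and 2 lower (9.6%), with CpGB 1 higher (10.8%) and 1 lower (6.27%), and with Zymosan 2 higher (4.43%) and 0 lower (1.82%). With SeV 1 was called higher (10.5%) and 0 lower (5.13%), with cGAMP 1 higher (11.7%) and 0 lower (5.91%), and with HMW 0 in either direction (0.953% and 0.0212%). Over the 63 conditions, which share the Ctrl libraries, 98 of 441 values were called higher (background 14.3%) and 78 lower (9.03%). The lower count depended on the scaling of the libraries: RLE gave 94 higher and 121 lower, library size alone 92 and 158, DESeq2 93 and 119, counts thinned to the lowest total 92 and 104, and the unfiltered fit 106 and 36. In the single-ligand comparisons RLE moved the median log2 difference of all tested genes by -0.14 to -0.07, library size alone by -0.30 to -0.03 and the fit without the filter by 0.16 to 0.24. Measured from the median of all genes in each comparison, the calls were 101 higher and 56 lower with TMM, 99 and 60 with RLE, 97 and 60 with library size alone, 98 and 59 with DESeq2, 103 and 55 without the filter and 95 and 72 on thinned counts. On that scale TMM called Fabp4 lower in 34 conditions, Lpl in 7, Fabp5 in 6, Cd36 in 5 and Plin2 in 4, and Plin2 higher in 4. Between single ligands, 47 of 147 differences were called against 13.7% over all genes.

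**Figure D4:**
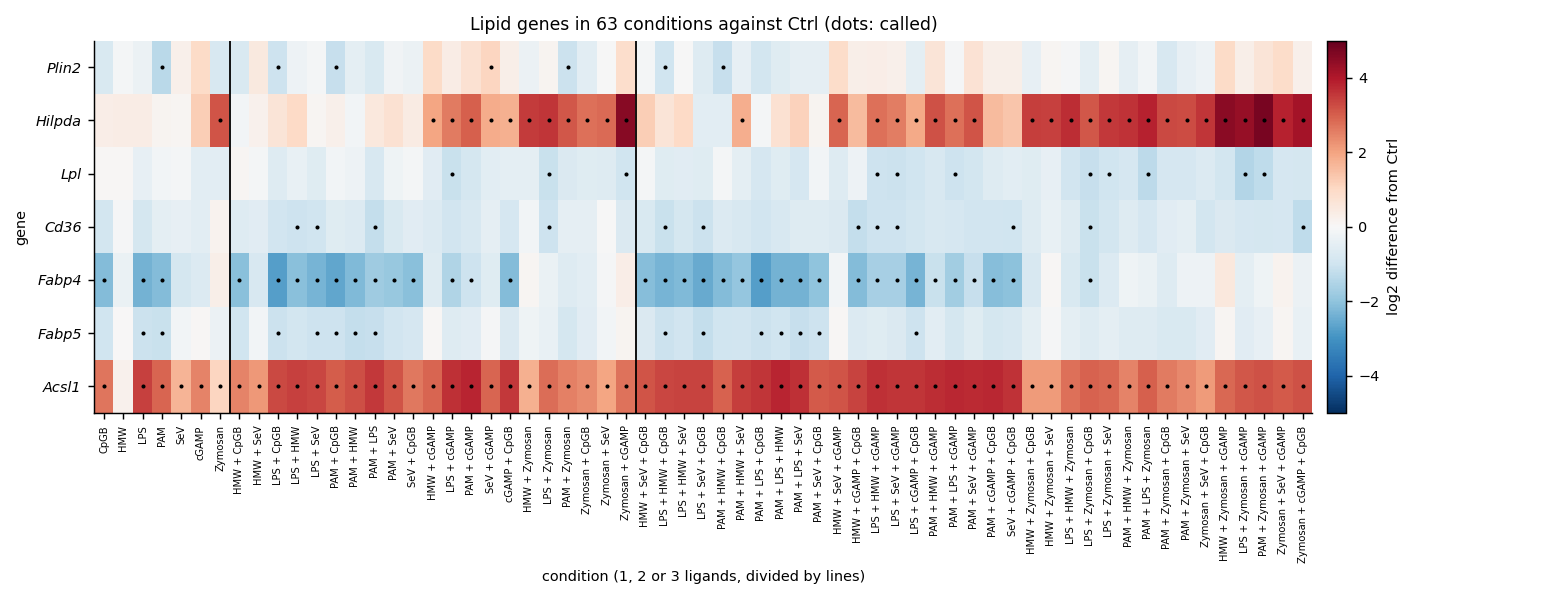
Log2 difference from Ctrl (colour) of 7 genes (rows) in 63 conditions (columns, divided into 1, 2 and 3 ligands), with called differences dotted. Acsl1 is called in all columns but HMW, Hilpda in 35 and Fabp4 in 35, Lpl in 11.

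Interactions, how far a pair's log2 difference departs from both single effects added up, were called for 35 of 147 values, 22 positive and 13 negative (background 1.08% and 3.5%). All 13 negative ones were of Acsl1, from -1.28 with SeV + cGAMP to -2.79 with PAM + LPS (SE 0.26, adjusted p = 1.67e-19). Positive ones were 9 of Fabp4, 7 of Plin2 and 6 of Fabp5. The positive count was 10 on counts thinned to the lowest total and 9 without replicate 3 of every group, with 17 without replicate 1 and 17 without replicate 2, and the negative count was 13 in each of these leave-one-out fits. For Fabp4 the largest was PAM + LPS (2.78, SE 0.38, adjusted p = 6.33e-10), in which the pair held 151 CPM against 111 and 100 CPM for the single ligands. For Fabp5 the pairs PAM + LPS, PAM + CpGB and LPS + CpGB departed by 1.03, 1.05 and 0.97 (adjusted p = 2.88e-08, 2.33e-08 and 1.30e-07) and held 1435, 1538 and 1505 CPM, near the level of each ligand alone. The Fabp5 interaction of LPS + CpGB did not pass on thinned counts (0.67, adjusted p = 0.0604). For Plin2 the largest was LPS + Zymosan (1.25, SE 0.23, adjusted p = 1.86e-05), in which 792 and 562 CPM alone went with 1068 CPM together, the Ctrl level being 971 CPM. All 21 interactions of a gene use the same 3 Ctrl libraries, which were the shallowest of the single-ligand set.

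**Figure D5:**
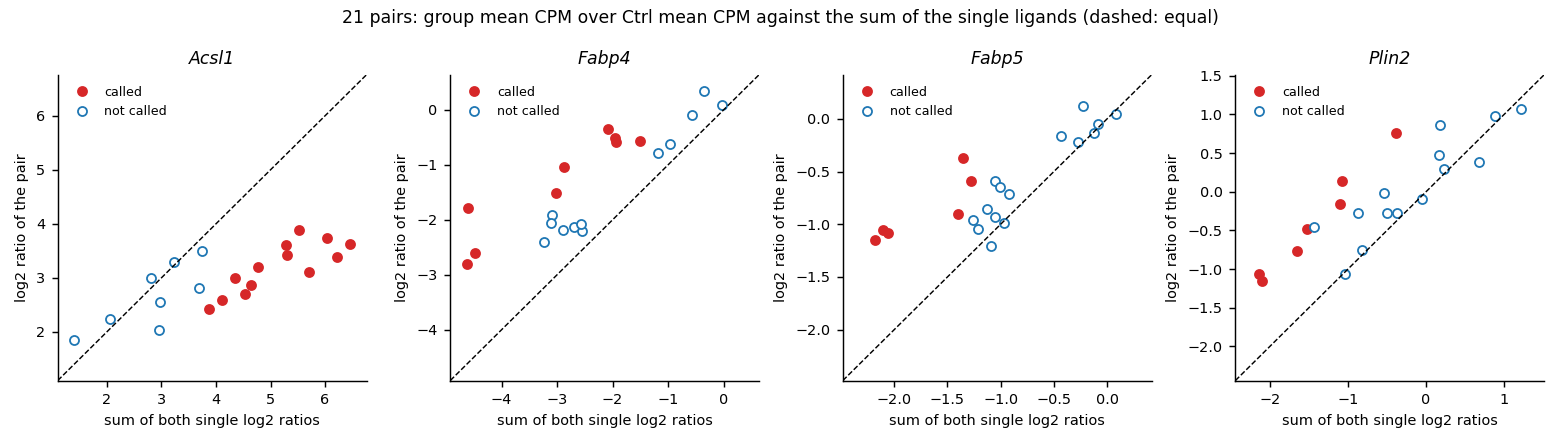
Log2 ratio of each of 21 pairs to Ctrl (vertical axis) against the sum of the 2 single-ligand log2 ratios (horizontal axis), from group mean CPM, for 4 genes, with pairs whose interaction was called filled and equality dashed. The 13 called pairs of Acsl1 lie below the line, and the called pairs of Fabp4, Fabp5 and Plin2 lie above it.

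Among the other lipid genes, 48 of 95 listed were tested. Adding LPS lowered 18 of the 48 on average and raised 2, against 11% and 14.9% of all genes, with a median over the 48 of -0.25 against -0.02 over all genes. cGAMP lowered 11 and raised 2 (10.3% and 14.3% of all genes, median -0.20 against -0.05), and PAM lowered 9 and raised 4 (5.89% and 6.53%, -0.14 against 0.00). CpGB lowered 4 and raised 3 (5.06% and 6.12%, -0.21 against -0.01), and SeV lowered 3 and raised 0 (2.58% and 7.9%, -0.09 against -0.04). Zymosan lowered 1 and raised 7 (3.81% and 8.58%, -0.04 against -0.03), and HMW had 0 calls in either direction (0.0847% and 0.297%, -0.02 against 0.02). Of the 48, Scd2 had 3 and Fads1 6 groups at 0 counts, and Acss2, Fasn and Rxra 1 each, so the log2 averages and calls of these 5 genes depend on the prior count, and for them only levels are given. Over the other 43 genes LPS lowered 14 and raised 2 (median -0.22), cGAMP lowered 7 and raised 2 (-0.17) and PAM lowered 7 and raised 4 (-0.11). Of the 4 genes of fatty acid synthesis and desaturation with counts in every group, LPS lowered 2 and cGAMP 1, with medians of -0.37 and -0.39, and 0 were raised by either. Scd2, a stearoyl-CoA desaturase, averaged 45.2 CPM without and 5.20 CPM with LPS, and 42.9 CPM without and 8.61 CPM with cGAMP. Fads1, a fatty acid desaturase, averaged 23.7 CPM without and 2.63 CPM with LPS. Of the 5 tested lipolysis genes, LPS and PAM lowered 3 each (medians -0.62 and -0.68) and CpGB 1, Zymosan raised 2 and cGAMP 1, on average over the backgrounds. Alone against Ctrl, at the fold threshold of 1, PAM lowered 4 (5.89% of all genes), LPS 3 (9.6%), CpGB 3 (6.27%) and cGAMP 2 (5.91%), and Zymosan raised 1 (4.43%). So cGAMP lowered 2 genes of this list alone (Abhd5 and Pla2g15) and raised a different one, Mgll, on average. Mgll, the monoglyceride lipase, was raised by Zymosan (1.13, SE 0.05, adjusted p = 1.08e-52) and by cGAMP (0.56, SE 0.06, adjusted p = 1.49e-18) and lowered by PAM (-1.01, SE 0.06, adjusted p = 2.25e-41) and by LPS (-0.62, SE 0.06, adjusted p = 6.34e-20). On average, of the 8 tested uptake and activation genes, LPS lowered 5 and raised 2 (median -0.59), cGAMP lowered 4 and raised 0 (-0.49), and PAM and CpGB each lowered 1 and raised 3 (-0.11 and -0.28). Alone against Ctrl the medians were above 0 with LPS (0.16, 3 lowered and 3 raised), PAM (0.61, 1 and 3) and CpGB (0.57, 2 and 3), opposite in sign to the averages, and -0.33 with cGAMP (1 and 1). The shares of all genes lowered and raised in these comparisons were 9.6% and 14.6% with LPS and 5.89% and 8.01% with PAM. They were 6.27% and 10.8% with CpGB and 5.91% and 11.7% with cGAMP. Those raised on average included Cav1, which encodes caveolin 1, with PAM (1.91), LPS (1.23) and CpGB (0.91), and Fabp3, another fatty acid carrier, with PAM (1.01), LPS (1.00), Zymosan (1.04) and CpGB (0.84), with adjusted p of 8.67e-25 or less. cGAMP lowered Cav1 (-0.56, SE 0.05, adjusted p = 1.45e-19). With Zymosan the regulator Nr1h3, which encodes a liver X receptor, fell (-0.93, SE 0.09, adjusted p = 1.86e-18). Pcyt1a, which encodes an enzyme that makes CDP-choline, a precursor of phosphatidylcholine, rose with cGAMP (0.92, SE 0.08, adjusted p = 3.44e-22), and Acss2, an acetyl-CoA synthetase, averaged 27.0 CPM without and 10.3 CPM with it. Fasn, the fatty acid synthase, averaged 27.9 CPM without and 14.9 CPM with SeV. Slc27a1, a fatty acid transporter, fell with SeV (-0.68, adjusted p = 0.00143) and CpGB (-1.09, adjusted p = 1.04e-07), and Pla2g15, a lysosomal phospholipase, fell with CpGB (-0.76, adjusted p = 6.02e-08).

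The genes most like each member were sought by Pearson's r over the 64 group means of log2 CPM, with 4500 genes at a group average of 20 CPM or higher. Plin2 was followed most closely by Pcna (0.92), Rgcc (0.87) and Slc23a2 (0.86), and ran opposite to Ifngr2 (-0.85). Hilpda was followed by Gm7120 (0.91), Psmd8 (0.91) and Basp1 (0.91), Lpl by the lysozyme genes Lyz2 (0.85) and Lyz1 (0.85) and by Nadk (0.85), and Cd36 by Bin1 (0.86), Cotl1 (0.85) and Myh9 (0.82). Fabp4 was followed by Tnfrsf26 (0.92), Cd63 (0.89) and Vegfa (0.88), Fabp5 by Plau (0.90), Gpnmb (0.88) and Pdxk (0.88), and Acsl1 by Irg1 (0.91), Marcksl1 (0.89) and Mdfic (0.89). The most opposite genes were Ncf1 for Hilpda (-0.80), Mdm2 for Lpl (-0.88), Ccl5 for Cd36 (-0.90), Lad1 for Fabp4 (-0.88), Itgal for Fabp5 (-0.94) and Cd300lb for Acsl1 (-0.87). Among the members, Acsl1 and Cd36 ran opposite (-0.80), as did Lpl and Hilpda (-0.74), and Fabp4 ran with Hilpda (0.74) and Fabp5 with Plin2 (0.72). These correlations describe groups that share ligands and are given without a p.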

How the data were processed

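The deposited table holds raw UMI counts per gene symbol for every library, and the submitters' processing notes name mm10 and BWA 0.7.15. The annotation and the way UMIs were collapsed are not given in the sources used here. Of 23481 genes, 8619 had no count, and edgeR 4.0.16 (R 4.3.3, filterByExpr by group) kept 4720, which hold 95.7% of the counts. A quasi-likelihood model with TMM scaling and 1 coefficient per group (128 residual degrees of freedom, biological coefficient of variation 10.3%) gave all contrasts, with Benjamini-Hochberg adjustment over all tested genes within each contrast. Calls needed an adjusted p under 0.05 and a log2 difference of at least 1 (0.5 for averages over 22 backgrounds, none for interactions). Standard errors are the absolute log2 difference divided by the square root of F. Log2 differences use the default prior count of edgeR, and the log2 CPM behind the correlations a prior count of 2. The test functions were first run on simulated counts with known changes, which checks the code and none of the effects reported here. Level comparisons are within a gene.

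Named genes are the 8 genes themselves. From fixed pathway lists they include, per ligand, the 2 largest rises and 2 largest falls among called averages, and per gene the 3 most and 1 least correlated other genes at a mean of 20 CPM or more. The members and lists were chosen with earlier results of these data known. Alternatives were RLE scaling, library size alone, DESeq2 1.42.0, no filter, thinning every library to 46564 counts, a replicate block, leaving out replicates, ligand and Ctrl libraries alone, and no fold threshold. Leaving out the 4 libraries that stood apart was added after the data were seen. No 2 libraries of a group were identical or agreed within sampling noise. Coordinates of genes are GENCODE M21 on GRCm38.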

Additional observations from a re-analysis of the deposited data

How the results depend on the processing

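No called single-ligand, average or interaction value changed direction under any alternative run, nor did the 2 calls of pairs above both singles. Other calls were compared by their counts or not at all, and not by direction. Of the 73 single-ligand and average values not called, 23 changed sign in at least 1 alternative, none of them at an adjusted p below 0.05 in the reported fit. Counts of calls shifted by over 1.5 times as follows. Lower calls against Ctrl with single ligands went from 6 to 10 with library size alone and 16 with no fold threshold. Over the 63 conditions lower calls went from 78 to 121 with RLE, 158 with library size alone, 119 with DESeq2, 36 without the filter on low counts and 217 with no fold threshold. Average effects called went from 8 to 17 higher with no fold threshold, and from 4 to 10 lower with library size alone, 8 on thinned counts and 19 with no fold threshold. Positive interactions went from 22 to 10 on thinned counts and ran from 9 to 22 with a replicate or a Ctrl library left out. With no fold threshold, pairs above both singles went from 2 to 5, pairs below from 0 to 3, and differences between ligands from 47 to 87. Leaving out the 4 libraries gave 100 higher and 78 lower calls over the 63 conditions. Ctrl, at 61823 to 89530 counts a library, gave 2 or 3 counts of Hilpda each, which limits its comparisons with Ctrl.

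The replicate numbers were not treated as pairing the libraries: deviations from the group means correlated at a median of 0.0081 between libraries of the same number and -0.0041 between others, and 0 of 2016 pairs of groups had all 3 correlations over 0.1. As a hint from the data that libraries of a number share something, 87.0% of libraries had their highest mean correlation with libraries of their own number of the 3. With the replicate number as a block, single-ligand calls were 7 higher and 6 lower, calls over the 63 conditions 98 and 77, average effects 8 and 4, and interactions 25 and 13.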
